A study of Dunaliella salina with 6 samples.

Results

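The genes described here encode the proteases and the protein import and insertion machinery of the plastid in Dunaliella salina Bardawil, a salt-tolerant unicellular green alga. They were chosen by the start of their gene symbol in the deposited annotation, with symbols such as CLP, FTSH, DEG, TIC, TOC, TAT, ALB and SRP, and with plastome genes left out. The rule found 85 genes of the 25081 in the expression table, on 14 chromosomes, and its exclusion of Rieske-domain genes removed 0. RNA was taken from wild-type vegetative cells of strain UTEX LB 2538 after 3 days in shaken liquid culture with 1 M NaCl under constant light. The medium held no added iron in 3 flasks and 1.5 µM added iron in the other 3, and each flask gave 1 library of poly(A) RNA. Cells without added iron are a model of iron limitation only as far as the medium goes, since no measurement of iron in the cells was used here.

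Most plastid proteins are made in the cytosol and reach the plastid through the TOC complex of the outer envelope and the TIC complex of the inner envelope. Inside, targeting peptides are removed and degraded, and proteins bound for the thylakoid are passed to the Sec, Tat or signal recognition particle route. Damaged or unneeded proteins are broken down by the Clp protease in the stroma, by FtsH proteases in the thylakoid membrane and by Deg proteases on both of its faces. In other algae and plants these proteases take part in removing photosynthetic complexes under stress, including nutrient limitation.

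The libraries separated by iron along the leading principal component, which held 63.3% of the variance, and replicate 3 without added iron lay closest to the other group with a score of 18.3 against 30 and 32.4 for replicates 1 and 2. No source used here gives read numbers per library. The smallest steps in the lowest values implied depths, in units of 1000000 reads, of 18.5 to 21.1 without added iron and 19.1 to 25 with it. These depths are rough, since the search took 0 nt off the gene length in some libraries and 202 or 203 nt in the others. Of the fixed marker genes, the 7 matched for photosynthetic cells summed to 12597 to 13914 FPKM (fragments per kilobase of a transcript, scaled to 1000000 mapped reads) without added iron and to 19403 to 22463 with it, with PSBO1A and PSBO1B near 0 in both groups, while the gamete gene HAP2 was listed at 0 in every library and GEX1 stayed under 1 FPKM.

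The symbols did not all stand for what the group name says. CTP1, CTP2, CTP3 and CTP4 carry an E1-E2 ATPase domain and a heavy-metal domain, the layout of metal-transporting P-type ATPases, and in Chlamydomonas these symbols belong to copper transporters. TSPP1, TSPSP1 and TSPSP2 carry a trehalose-phosphatase domain. SRP9, SRP14, SRP19, SRP68 and SRP72 are subunits of the cytosolic signal recognition particle, and SRP1 and SRP2 carry domains of its receptor at the endoplasmic reticulum. These 14 genes are counted as members under the rule and described apart. SPP1A and SPP1B have a peptidase S49 domain, that of the SppA thylakoid protease, and not that of the stromal peptidase that cuts transit peptides. Among the other members, the Clp protease domain was found in all 7 CLPP and CLPR genes, a trypsin-like domain in all 8 DEG genes, and a TatA/B domain in TATA1 and TATB1. The M41 peptidase domain was found in 6 of the 12 FtsH genes, and 12 of the 85 members have no Pfam domain in the annotation.

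As a set the members were expressed above the middle of the transcriptome and changed little. A mean of at least 1 FPKM over the 6 libraries was reached by 77 members, which were tested. The lowest of them was CTP1 at 4.77 FPKM, and the highest untested member was CLPS2B at 0.0754 FPKM. Of the 77, 67 (87.0%) had a mean above the median of all tested genes. The members' fold changes had a median of -0.01 on the log2(FPKM + 1) scale, beside 0.00 for all 13909 tested genes, and 61 of the 77 (79.2%) lay within 0.25 of 0, beside 71.1% of all tested genes. Summed over all 85 members, the level was 2783 to 3291 FPKM without added iron and 2859 to 3204 FPKM with it, ranges that overlap. As a share of each library's summed FPKM, which was itself lower without added iron, it was 0.588% to 0.613% against 0.523% to 0.531%, and these ranges did not overlap. No tested member reached a 2-fold difference, beside 2.56% of all tested genes.

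Without added iron 2 members rose and 7 fell at a limma adjusted p under 0.05, so that 9 of 77 (11.7%) were called, close to the 9.39% called among all tested genes. For higher genes alone the share among all tested genes was 4.19%, and for lower genes 5.2%. The 3 flasks of each group did not overlap for 24 members, 6 higher and 18 lower, which is 31.2% beside 30.2% of all tested genes. Over all tested genes 14.2% were higher and 16% lower without overlap. CLPS1 and CLPB3 rose. SRP43, ALB3A, TATA1, TATB1, SPP1A, CTP2 and TSPSP1 fell. Without the 14 genes set apart above, 7 of 63 members were called, with the same 2 higher and 5 lower. The compartment of some of these 63, CLPB3 among them, is not settled by their names. In bulk RNA, fewer cells expressing a gene and less of its RNA per cell cannot be told apart.

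**Figure D1:**
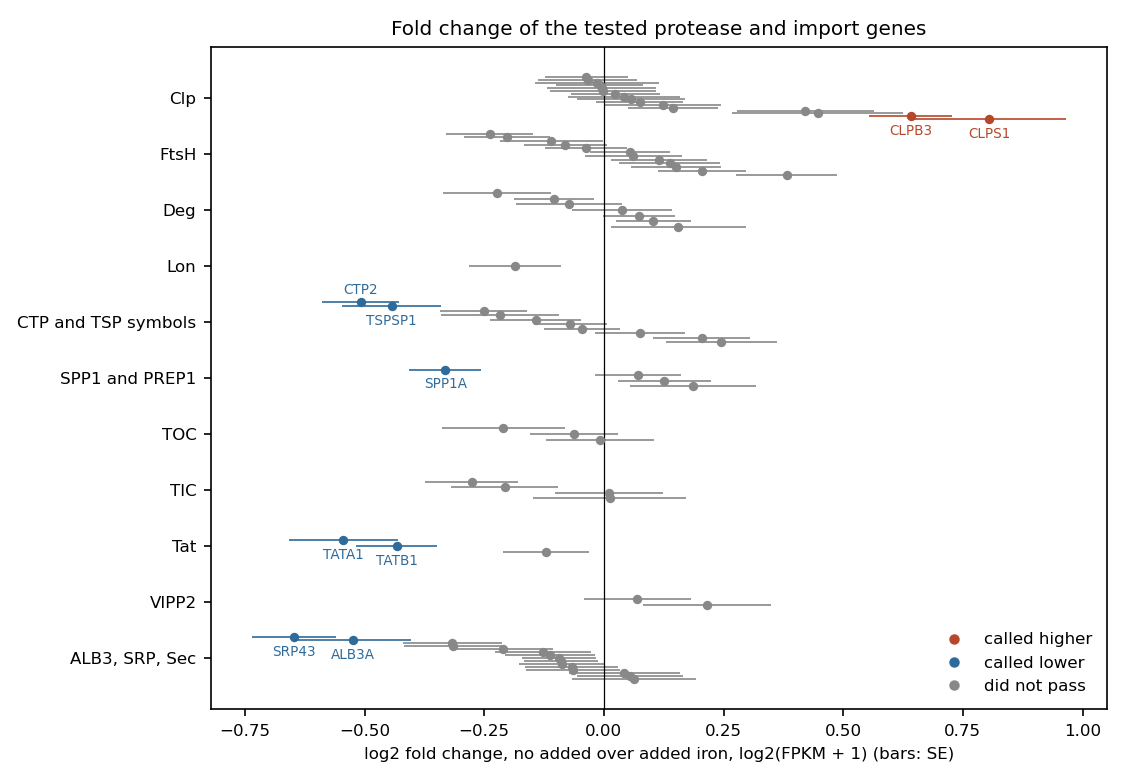
Log2 fold change of the 77 tested members by role group, as log2(FPKM + 1) without added iron minus that with it, with bars of 1 standard error. The 2 genes called higher are both in the Clp group, at 0.64 and 0.81, and the 7 called lower lie between -0.65 and -0.33.

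The count depended on the scaling and on single libraries. When the columns were rescaled to a common sum, the median of all tested genes moved to 0.17 and 29 members were called, 23 of them higher and 6 lower. With median-of-ratios factors 13 members were called, 4 higher and 9 lower. Leaving out 1 library at a time gave 3 to 10 called members, the fewest (3) without replicate 2 of no added iron or replicate 3 of added iron, 4 without replicate 1 or 2 of added iron, 6 without replicate 1 of no added iron and 10 without replicate 3 of no added iron. CLPB3, SRP43 and CTP2 were called in all 14 of these and the other alternatives run.

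The Clp protease is a barrel of catalytic CLPP and non-catalytic CLPR subunits. Its 7 nuclear core genes had mean levels from 45.6 FPKM for CLPR6 to 97.2 FPKM for CLPP5, and in each library the highest was 1.88 to 2.37 times the lowest. None of the 7 passed the test. Of these genes 6 had fold changes between -0.01 and 0.06, and CLPR4 had 0.42 (SE 0.142, limma adjusted p = 0.109).

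CLPR4 was measured at 76.4, 80.1 and 57.5 FPKM in replicates 1, 2 and 3 without added iron and at 50.1, 49.5 and 58.4 FPKM with it. Replicate 3 without added iron lay inside the range of the added-iron flasks, so the groups overlapped. Without that library CLPR4 was among the called members, as it was in replicates 1 and 2 alone and under each of the 3 other scalings. With columns rescaled to a common sum the core genes CLPP4, CLPR2 and CLPR3 were called too. The ratio of CLPP5 to CLPP4, both catalytic subunits, was 1.02 ± 0.0415 without added iron (SD, n = 3) and 1.05 ± 0.0355 with it, and the groups overlapped (exact permutation p = 0.4). The plastome clpP gene, which is no member, was read at 0.102 to 0.561 FPKM in these poly(A) libraries.

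Chaperones of the Hsp100 class feed unfolded proteins into the Clp barrel. CLPC1, the main one in plastids, had the highest level of the Clp group at 205, 189 and 154 FPKM without added iron and 163, 162 and 174 FPKM with it. The groups overlapped, and its fold change was 0.12 (SE 0.122, limma adjusted p = 0.582). CLPD1, a related stromal chaperone, had 0.45 (limma adjusted p = 0.167) with overlapping groups. Both genes were called with columns rescaled to a common sum. CLPT4, named after accessory subunits that dock on the core, had -0.03.

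CLPS1 (DsB_g00036, chromosome 1, 434328 to 435924, minus strand, 4 exons) showed the largest rise of any member. ClpS proteins are adaptors that bind substrates by their N-terminal residue and hand them to ClpC, and in Arabidopsis the plastid form takes part in the turnover of an enzyme of tetrapyrrole synthesis. Its level was 176, 141 and 129 FPKM without added iron and 98.6, 69.8 and 85.9 FPKM with it. Every flask without added iron was above every flask with it. The means were 149 ± 24.1 and 84.7 ± 14.4 FPKM (SD, n = 3), which is a log2 difference of 0.81 (SE 0.160, limma adjusted p = 0.0199). The limma adjusted p was 0.0709 without the filter on low values. Leaving out replicate 1 or 2 of no added iron gave 0.0579 and 0.0613. Leaving out replicate 2 or 3 of added iron gave 0.0641 and 0.0617.

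Within each library, where scaling cancels, CLPS1 stood at 0.814 ± 0.0563 times the level of CLPC1 without added iron and at 0.509 ± 0.0878 times with it (SD, n = 3). The ratios did not overlap between groups, and the exact permutation test gave p = 0.1, below which 3 libraries against 3 cannot go, and 0.12 adjusted over the 6 ratios compared. CLPC1 was chosen as the denominator with earlier results known, so the ratio is no further evidence for the rise of CLPS1.

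CLPB3 (DsB_g00211, chromosome 1, 3379817 to 3413740, plus strand, 24 exons) encodes an Hsp100 of the ClpB type, a disaggregase that pulls proteins out of aggregates with the help of Hsp70. The annotation gives it the product name ClpB1, so its compartment is not settled by the name. It was measured at 46.2, 44.9 and 41.5 FPKM without added iron and 27.8, 27.3 and 28.9 FPKM with it. The lowest flask without added iron was well above the highest with it, and the log2 difference was 0.64 (SE 0.0860, limma adjusted p = 0.00378). The other ClpB genes, CLPB1, CLPB2 and CLPB5, did not pass, with fold changes of 0.14, -0.04 and 0.07.

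The 8 genes named CLPS2 have no Pfam domain in the annotation. CLPS2F, with 7 exons, had a mean of 15.7 FPKM and a fold change of 0.02. The other 7 are single-exon models with at most 0.196 FPKM in any library and were not tested. Of these, 6 have the same length and a neighbouring model at a gap of 40 nt. CLPS2A, CLPS2G and CLPS2H, on 3 chromosomes, had the same value as each other in all 6 libraries. No source used here says how reads common to such copies were assigned, so these values are uncertain for any 1 copy.

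**Figure D2:**
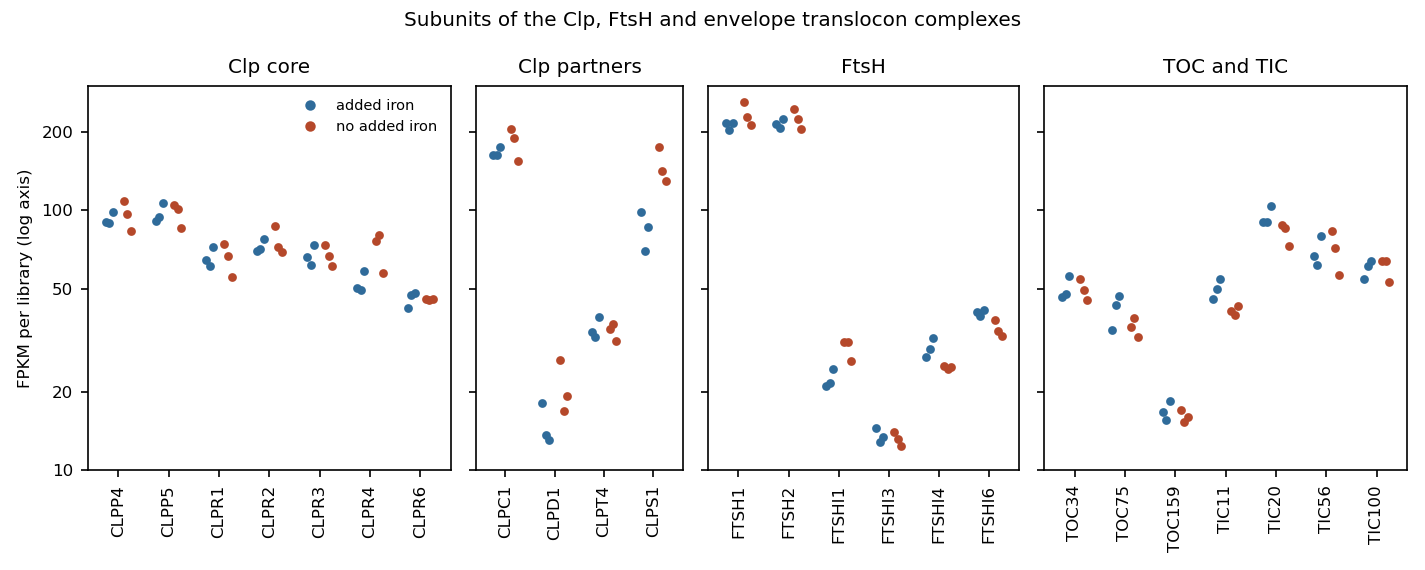
FPKM of each library on a log axis for the Clp core, the Clp chaperones and adaptor, FtsH genes and the TOC and TIC subunits, blue for added iron and red for no added iron. All 7 core subunits overlap between groups, TIC11 and TIC20 alone of the translocon subunits do not, and CLPS1 stands apart at 129 to 176 against 69.8 to 98.6 FPKM.

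FtsH proteases are membrane-bound ATP-dependent metalloproteases, and the thylakoid form is a ring of 2 kinds of subunit that degrades damaged photosystem II proteins. FTSH1 and FTSH2, the chloroplast FtsH genes by their product names, were the most abundant of all members. FTSH1 had 260, 228 and 213 FPKM without added iron and 216, 203 and 217 FPKM with it. FTSH2 had 245, 224 and 205 FPKM without added iron and 214, 207 and 224 FPKM with it. They ranked 313 and 318 by mean level among the 13909 tested genes and were close to each other in every library, with FTSH1 at 0.967 to 1.06 times FTSH2.

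Neither passed the test, with fold changes of 0.14 (SE 0.105, limma adjusted p = 0.467) and 0.06 (SE 0.101, limma adjusted p = 0.758). The ratio of FTSH1 to FTSH2 was 1.04 ± 0.0211 without added iron (SD, n = 3) and 0.986 ± 0.0220 with it. Its exact permutation p was 0.1, the lowest possible here, and 0.12 adjusted over 6 ratios. The ratio was higher in all 3 flasks without added iron, by a small amount. FTSH1 was called higher under quantile normalization, at 0.24 (limma adjusted p = 0.0391), and FTSH2 was not. With columns rescaled to a common sum both were called higher, FTSH1 at 0.32, where the median of all genes was 0.17.

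The other 10 FtsH genes had mean levels of 9.51 to 37.7 FPKM, and 0 of them passed. The FTSHI symbols are named after relatives that in Arabidopsis have lost protease activity and sit at the inner envelope with the import motor. FTSHI1 had the largest difference, at 31.2, 31.2 and 26.2 FPKM without added iron and 21.1, 21.7 and 24.5 FPKM with it. The groups did not overlap, and its log2 fold change of 0.38 had a limma adjusted p of 0.0616, just short of the threshold. FTSHI1 was called with the filter at 5 FPKM, under each of the 3 other scalings, in replicates 1 and 2 alone, and when replicate 3 of no added iron was dropped. FTSHI1 and FTSHI6 keep the M41 peptidase domain in the annotation. FTSHI4 and FTSHI6 differed the other way, also without overlap, at -0.24 and -0.20 (limma adjusted p = 0.149 and 0.211), and FTSHI3 had -0.04. FTSH3A, FTSH3B, FTSH4 and FTSH9 ranged from -0.08 to 0.20, and of these FTSH9 alone had groups that did not overlap. Of these genes FTSH3A alone has the M41 domain in the annotation. FTSH3B has no domain, and FTSH4 also carries a ubiquitin-conjugating domain, so these symbols are uncertain.

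FTSH11A and FTSH11B are neighbours on the minus strand of chromosome 11 with a gap of 1557 nt. FTSH11B lies upstream and carries the AAA ATPase domain, while FTSH11A carries the peptidase M41 domain, so that together they hold the domains of 1 FtsH protein in order. Their mean levels were 12.5 and 14.6 FPKM and their fold changes 0.06 and -0.11. Whether they are 1 gene was not tested.

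Deg proteases are serine proteases of the HtrA family that work without ATP. Of the 8 genes, DEG2, a model of 399 nt, was listed at 0 in every library, and 0 of the 7 tested genes passed. DEG1A, whose namesake in plants acts in the thylakoid lumen, had the highest mean of them at 17.9 FPKM. It was measured at 21.6, 15.3 and 19.99 FPKM without added iron and at 19.0, 16.4 and 15.0 FPKM with it, with a fold change of 0.16 (limma adjusted p = 0.545). The flasks of both groups were mixed in order. DEG8 had the largest negative value at -0.22 (limma adjusted p = 0.271), and DEG1B, DEG5, DEG6, DEG7 and DEG9 lay between -0.10 and 0.10. DEG1B overlaps DsB_g19810 on the opposite strand at its start, and no source used here says whether counting used strand.

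LON1, named after the ATP-dependent Lon proteases, had 20.5, 19.9 and 19.1 FPKM without added iron and 20.7, 22.2 and 25.3 FPKM with it. Its Pfam domains in the annotation include AAA but not the Lon protease domain, and its compartment is not settled by the name. The groups did not overlap, but the fold change of -0.19 did not pass (limma adjusted p = 0.279). The peptidases CTPA1, CTPB1 and CTPC1 have the S41 domain of C-terminal processing enzymes, of which CtpA trims the D1 protein of photosystem II. Their fold changes were -0.22, 0.25 and -0.05, and none passed. CTPB1 was nonetheless higher in every flask without added iron, from 40.9 to 50.4 FPKM against 34.4 to 40.6 FPKM (limma adjusted p = 0.238).

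PREP1, which degrades transit peptides once they have been cut off, had 55.9, 51.0 and 50.1 FPKM without added iron and 48.7, 48.8 and 51.6 FPKM with it. Its groups overlapped, at 0.07 (limma adjusted p = 0.673). SPP1A (DsB_g09145, chromosome 4, 29082559 to 29107993, minus strand, 19 exons) fell. It had 12.01, 12.12 and 12.03 FPKM without added iron and 14.8, 15.3 and 16.2 FPKM with it. The flasks without added iron were nearly equal and all below those with it, a log2 difference of -0.33 (SE 0.0752, limma adjusted p = 0.0325).

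The call for SPP1A was lost with columns rescaled to a common sum (-0.17, limma adjusted p = 0.138). Leaving out replicate 1 or 2 of no added iron ended it too (limma adjusted p = 0.0869 and 0.120), as did leaving out replicate 1, 2 or 3 of added iron (0.0748, 0.105 and 0.0951). SPP1B and SPP1C, neighbours elsewhere on chromosome 4, had 0.13 and 0.19 and did not pass. SPP1C has 2 exons and no domain.

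None of the 7 genes of the envelope translocons passed the test. TOC34, a GTPase receptor for incoming precursors, had 54.5, 49.3 and 45.3 FPKM without added iron and 46.4, 47.6 and 56.0 FPKM with it. Its log2 difference of -0.01 (SE 0.113, limma adjusted p = 0.979) was smaller than its standard error. TOC159, the larger receptor, had -0.06, and TOC75, the channel, had -0.21 (limma adjusted p = 0.357).

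TIC20, a channel subunit of the inner envelope, had 87.4, 85.5 and 72.7 FPKM without added iron and 90.3, 89.7 and 104 FPKM with it. Every flask without added iron was lower, at -0.21 (limma adjusted p = 0.298). The gene named TIC11 carries the domain of TIC110, the scaffold of the import motor, and also lay lower without overlap, at -0.28 (limma adjusted p = 0.121). TIC56 and TIC100, further subunits of the TIC20 complex, both had 0.01. 

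The Tat translocase carries folded proteins, some with metal cofactors, across the thylakoid membrane, with TATA as pore-forming subunit and TATB and TATC as receptor. TATA1 (DsB_g07569, chromosome 4, 5769538 to 5770641, minus strand, 1 exon) had 87.5, 76.3 and 77.5 FPKM without added iron and 121, 104 and 129 FPKM with it. The groups did not overlap, and it fell by 0.54 on the log2 scale (SE 0.113, limma adjusted p = 0.0235). TATB1 (DsB_g24690, chromosome 16, 11075573 to 11086260, minus strand, 8 exons) had 23.6, 23.1 and 22.1 FPKM without added iron and 30.7, 29.9 and 33.3 FPKM with it. It too was lower in every flask, and it fell by 0.43 (SE 0.0850, limma adjusted p = 0.0190).

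TATC1, the third subunit, had 35.8, 31.7 and 31.2 FPKM without added iron and 36.8, 35.5 and 35.1 FPKM with it. Its groups overlapped in 1 flask, and it did not pass at -0.12 (SE 0.0904, limma adjusted p = 0.456). Within each library TATA1 stood at 2.45 ± 0.0369 times TATC1 without added iron and at 3.30 ± 0.371 times with it (SD, n = 3). For TATB1 the ratio to TATC1 was 0.698 ± 0.0353 (SD, n = 3) without added iron and 0.875 ± 0.0648 in the iron-supplied flasks. Neither ratio overlapped between groups, and for each the exact permutation test gave p = 0.1, the lowest possible here, and 0.12 adjusted over 6 ratios. Since TATC1 was chosen as the denominator with these values known, the ratios describe the 3 subunits and are no further evidence.

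The calls for both Tat genes depended on single libraries. For TATA1 the limma adjusted p was 0.107 with replicate 2 of no added iron left out, 0.0829 and 0.0752 with replicate 1 or 3 of added iron left out, and 0.0508 with no filter on low values. For TATB1 it was 0.0834 when replicate 2 of no added iron was dropped. Dropping replicate 1, 2 or 3 of added iron gave 0.0614, 0.0579 and 0.0596.

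VIPP proteins shape and repair the thylakoid membrane, and VIPP2 is known in Chlamydomonas as a stress-induced relative of VIPP1. VIPP2A had 97.5, 85.3 and 86.2 FPKM without added iron and 68.5, 71.5 and 93.0 FPKM with it. The third flask with added iron lay among those without it, and the fold change of 0.22 did not pass (limma adjusted p = 0.365). VIPP2B, which lies 1031 nt from VIPP2A on the same strand of chromosome 8 and alone of the pair carries the IM30 domain, had a mean of 44.5 FPKM and a fold change of 0.07.

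In the chloroplast signal recognition particle route, SRP54 and SRP43 bind light-harvesting proteins in the stroma, the receptor FtsY docks them at the thylakoid, and the integrase ALB3 inserts them. SRP43 and ALB3A fell without added iron, while the other genes of the route did not pass. ALB3B and SRP54L were called with median-of-ratios factors and with quantile normalization. SRP43 (DsB_g20689, chromosome 12, 11327698 to 11344473, plus strand, 11 exons) had 20.8, 21.4 and 22.0 FPKM without added iron and 34.7, 31.4 and 36.3 FPKM with it. No flask of the first group came near the second. The means were 21.4 ± 0.573 and 34.1 ± 2.47 FPKM (SD, n = 3), and the difference of -0.65 in log2 (SE 0.0884, limma adjusted p = 0.00412) was the largest fall of any member.

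ALB3A (DsB_g15059, chromosome 8, 13823109 to 13834546, plus strand, 10 exons) had 26.3, 22.4 and 21.2 FPKM without added iron and 31.9, 31.1 and 39.0 FPKM with it. Its groups did not overlap, and it fell by 0.52 (SE 0.122, limma adjusted p = 0.0353). Its limma adjusted p rose to 0.127 and 0.0618 when replicate 2 or 3 of no added iron was dropped, and to 0.0834 with no filter on low values. Dropping replicate 1, 2 or 3 of added iron gave 0.0724, 0.0675 and 0.0940.

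Its relative ALB3B was also lower in every flask, at -0.32, and did not pass (limma adjusted p = 0.101). ALB3A stood at 0.583 ± 0.0371 times ALB3B without added iron and at 0.678 ± 0.0292 times with it (SD, n = 3), again with an exact permutation p of 0.1 and 0.12 adjusted over 6 ratios. This pair too was chosen with earlier results known, so its ratio is no further evidence for the fall of ALB3A.

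SRP54L, with the GTPase domain of SRP54 but no M domain in the annotation, was lower without overlap at -0.31 (limma adjusted p = 0.0985). SRP54, with the M domain, had -0.09. The names do not settle the compartment of either gene, or whether SRP54L, without the M domain, is a form of SRP54. FTSY1 (DsB_g07413), whose symbol lies outside the rule and which was added after its values were seen, had 27.8, 22.2 and 19.0 FPKM without added iron and 21.8, 20.9 and 26.7 FPKM with it. Its groups overlapped, at -0.02 (limma adjusted p = 0.967). SECA1, the motor of the Sec route, and its channel genes SECY1 and SECY2 had -0.13, 0.05 and -0.09 and did not pass.

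The RNA of genes for light-harvesting proteins, which this route inserts, was compared beside it. Of the 15 light-harvesting genes LHCA, LHCB and LHCBM, 11 fell, 0 rose and the median log2 fold change was -0.83, beside 9.39% called over all tested genes. LHCA2, for example, a photosystem I antenna gene, fell from 1056 to 1251 FPKM with added iron to 316 to 416 FPKM without it. Of the 15, LHCB7 alone was higher in every flask without added iron, and it did not pass (limma adjusted p = 0.197). Whether the changes of SRP43 and ALB3A depend on those of the light-harvesting genes was not tested.

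**Figure D3:**
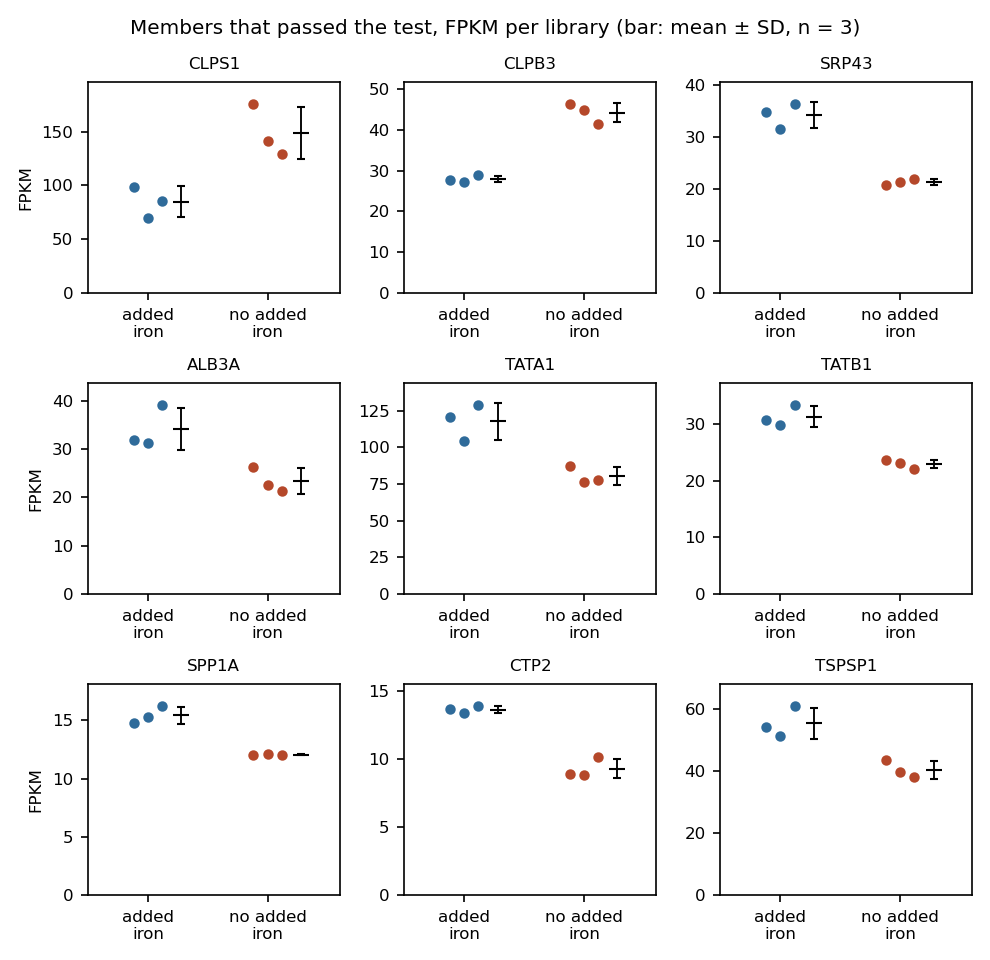
FPKM of each library for the 9 members that passed the test, with the mean ± SD of 3 libraries beside the points and axes that start at 0. In every panel the groups do not overlap, with CLPS1 and CLPB3 higher and the other 7 lower without added iron.

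Among the 14 genes set apart, CTP2 and TSPSP1 fell and the other 12 did not pass. CTP2 (DsB_g13907, chromosome 7, 20175497 to 20232957, minus strand, 22 exons), a P-type ATPase, had 8.91, 8.85 and 10.1 FPKM without added iron and 13.6, 13.3 and 13.9 FPKM with it. The groups did not overlap, and it fell by 0.51 (SE 0.0807, limma adjusted p = 0.00799). A 1-exon model on the opposite strand, DsB_g13906, lies within it and had at most 0.839 FPKM. CTP1, CTP3 and CTP4 had 0.20, -0.14 and -0.07.

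TSPSP1 (DsB_g08260, chromosome 4, 16569745 to 16595827, plus strand, 19 exons), with trehalose-6-phosphate synthase and phosphatase domains, had 43.7, 39.6 and 38.2 FPKM without added iron and 54.1, 51.2 and 61.0 FPKM with it. It was lower in every flask and fell by 0.44 (SE 0.103, limma adjusted p = 0.0353), the least stable of the calls. Leaving out any 1 library ended it. Dropping replicate 1, 2 or 3 of no added iron gave limma adjusted p of 0.0543, 0.139 and 0.0582. For the added-iron flasks, in the same order, it was 0.0921, 0.0704 and 0.0971. TSPSP2 had -0.25 (limma adjusted p = 0.129) and TSPP1 0.08.

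The 7 genes of the cytosolic signal recognition particle and its receptor had fold changes from -0.21 to 0.06, and 0 passed. SRP1 and SRP19 were lower in every flask. SRP14, the most abundant, had 78.6, 72.4 and 70.3 FPKM without added iron and 59.6, 71.3 and 82.4 FPKM with it, at 0.06 (limma adjusted p = 0.810). The added-iron flasks enclosed those without added iron.

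**Figure D4:**
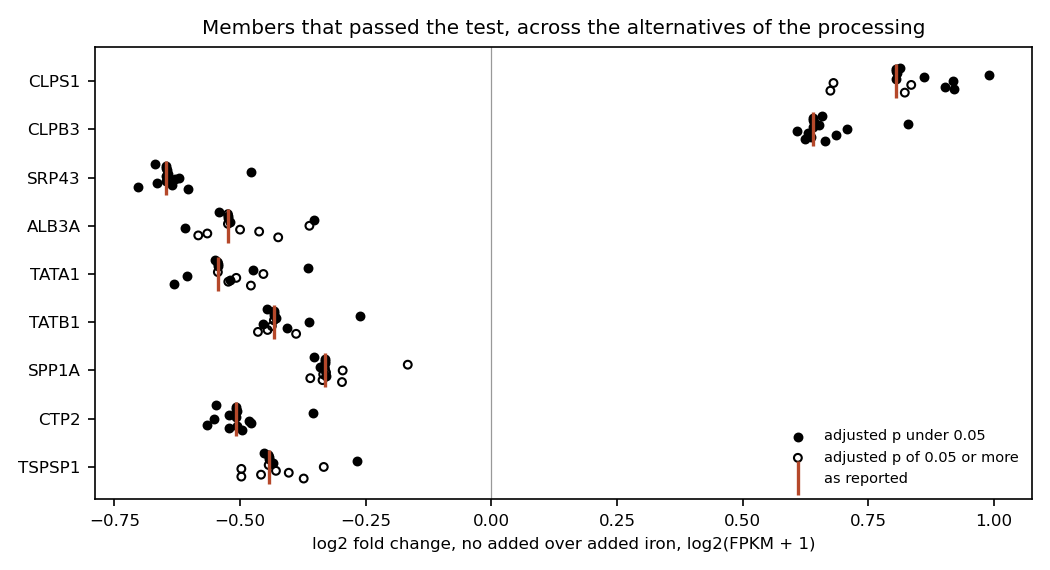
Log2 fold change of the 9 called members as reported (red line) and in 14 alternatives of the processing, filled where the adjusted p was under 0.05. All 9 keep their direction, CLPB3, SRP43 and CTP2 keep the call throughout, and TSPSP1 keeps it in 5 of 14.

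Related genes outside the rule were matched by symbol. Among 29 plastid chaperone and chaperonin symbols, 19 were tested, 1 rose and 0 fell, a share of 5.26% beside 9.39% over all tested genes. The 29 include the models HSP22A to HSP22Q, to which all the untested symbols belong. Matching was by symbol only, so the compartment of each gene was not checked. The gene that rose was CDJ4 (DsB_g02899, chromosome 2, 9148988 to 9158875), a co-chaperone with a J domain and ferredoxin-type iron-sulfur domains, whose family in Chlamydomonas works with plastid Hsp70. It had 255, 229 and 157 FPKM without added iron and 2.98, 1.88 and 1.55 FPKM with it. The groups lay far apart, at a log2 difference of 6.09 (SE 0.215, limma adjusted p = 2.12e-06). No member of the protease and import set changed on that scale. HSP70B, its Hsp70 partner in Chlamydomonas, was higher in every flask without added iron, at 0.22, and did not pass (limma adjusted p = 0.216). CDJ1 was lower in every flask, at -0.36, and did not pass (limma adjusted p = 0.0907). The chaperonin genes CPN60A, CPN60B and CPN60C had overlapping groups and did not pass, at -0.05, -0.11 and -0.04.

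The list of other plastid proteases matched 4 symbols, of which 2 fell, EGY1 and RBD2, where 5.2% of all tested genes fell. EGY1, in Arabidopsis a thylakoid metalloprotease and here without a Pfam domain in the annotation, had 46.6, 42.2 and 44.3 FPKM without added iron and 61.7, 56.2 and 60.6 FPKM with it. It was lower in every flask and fell by 0.41 (limma adjusted p = 0.0273). RBD1 and RBD2 matched letters meant for rhomboid proteases but carry a rubredoxin domain, that of small iron proteins.

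RBD2 had 22.7, 22.7 and 22.4 FPKM without added iron and 70.0, 77.9 and 94.6 FPKM with it and fell by 1.78 (limma adjusted p = 1.15e-04). RBD1 had -0.34 and did not pass (limma adjusted p = 0.1005). TPP1, with the domain of the peptidase that trims proteins in the thylakoid lumen, had 0.08. Among 28 symbols matched for mitochondrial import, 1 rose and 0 fell (3.57%, beside 9.39%). The 28 include MIA1, MIA2, PAM1, PAM68 and TOM6, whose domains are not those of the import machinery. The gene that passed was MGE1, the exchange factor of mitochondrial Hsp70, at 0.58 (limma adjusted p = 0.0410).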

How the data were processed

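The deposited FPKM values were made by the authors with STAR 2.4.0j and Cuffdiff 2.0.2, per the submitters' processing notes, from 50 nt single-end reads on their own assembly. No source used here gives the options, strand or handling of multi-mapped reads. Coordinates, counted from 1, are those of the deposited annotation, and its Pfam identifiers were read as domain names from general knowledge.

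Genes with a mean of at least 1 FPKM were fitted with limma 3.58.1 in R 4.3.3 on log2(FPKM + 1), with group as the only term, a variance trend, two-sided tests and Benjamini-Hochberg adjustment over 13909 genes at 0.05. Fold changes are no added over added iron on that scale, which understates low genes. On simulated data for this comparison over 13909 genes, 85.1% of 2-fold and 100% of 4-fold changes were recovered, and 4.15% of calls were false. The changed genes were drawn only from those above the median level. No change under 2-fold was simulated, so recovery at the members' smaller differences was not measured. The series' design text names flasks but not separate precultures, and the sample labels give replicate numbers only, so p-values may measure flask spread only. FPKM are not counts: converted by the implied depth, only 23.9% to 43.9% of the values below 10 reads came within 0.05 of whole numbers, so no count model was run. Ratios were compared with two-sided exact permutation tests.

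Members, lists, ratios and the 14 genes set apart were chosen with earlier results of these data known. Named with all values were the called members, non-overlapping members with a log2 difference of at least 0.5, and the most abundant member of each role group. CLPR4, FTSH2, FTSHI1, TATC1, FTSY1, LHCA2 and the examples given in full from the related lists were chosen after their values were seen. Alternatives varied the pseudocount, filter, scaling, block and libraries. No sequences were used.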

Additional observations from a re-analysis of the deposited data

How the results depend on the processing

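Over all tested genes 1306 were called, and 9 members, 2 higher and 7 lower. With columns rescaled to a common sum these became 3736 genes and 29 members, 23 of them higher, and the members' median moved from -0.01 to 0.17, as did that of all genes. Quantile normalization gave 2148 genes and 14 members, 5 of them higher, and median-of-ratios factors 4 higher members. Without the filter 4 members were lower, and the 2 higher were CLPB3 and CLPS2E, a model with at most 0.0966 FPKM. In replicates 1 and 2 alone 4 members were higher and 3 lower. Leaving out 1 library at a time gave 585 to 1789 genes, 3 to 10 members, 1 to 4 higher and 2 to 6 lower, with members' medians of -0.07 to 0.04. The pseudocount, the stricter filter and the removal of 14 members (added after seeing the data) left these counts within 1.5 times.

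The fit with the replicate number as a block called 813 genes and 4 members, 2 higher and 2 lower, and did not call ALB3A, SPP1A, TATA1, TATB1 and TSPSP1 (limma adjusted p = 0.103, 0.115, 0.0692, 0.0931 and 0.121). Same-numbered libraries correlated at 0.0246, 0.0776 and -0.135 in their deviations from the group means, and not every library correlated best with its own number. Deviations from a mean of 3 libraries sum to 0, so these correlations cannot settle whether the numbers pair the libraries.

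No called member changed direction in any of the 14 alternatives. Reversed signs were found for TOC34, at 0.17 with a common sum, 0.012 with quantile normalization, 0.14 in replicates 1 and 2, and between -0.0746 and 0.0752 when 1 library was left out (0.0557 and 0.0752 without replicate 3 of no added or of added iron), and for SRP14, at -0.0563 without replicate 1 of added iron. The causes were not tested. With 3 flasks a group the median standard error of a member's log2 difference was 0.101.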
